A study of Mus musculus with 12 samples.

Results

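The 7 mature arms of the miR-192, miR-194 and miR-215 hairpins (listed as mmu-mir-192-5p, mmu-mir-192-3p, mmu-mir-194-5p, mmu-mir-194-1-3p, mmu-mir-194-2-3p, mmu-mir-215-5p and mmu-mir-215-3p) were taken by name from a small RNA count table of 1978 mature mouse miRNAs. All 7 were present in the table, and they were followed across colon and whole blood of the same 6 mice, giving 12 libraries. The study selected these 6 mice by disease activity, a score of weight loss, stool consistency and bleeding. The mice were C57BL/6 males, 8 weeks old when obtained, and no allele was altered. The DSS group (mice 1, 7 and 9) received dextran sulfate sodium, a sulfated sugar polymer toxic to the lining of the colon, in their drinking water (1.5% wt/vol) for 7 days. The control group (mice 2, 4 and 8) drank the same water without it, and all 6 were sacrificed on day 8. The model is an acute chemical injury rather than human ulcerative colitis, and whole colon tissue holds epithelium, muscle, stroma and blood cells together.

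This grouping follows the mouse numbers shown for each group in the study's own figures, and the sample descriptions contradict it. Under disease state, colitis is entered for mice 1, 2 and 4 and control for mice 7, 8 and 9, and this assignment was run as an alternative to the tests between DSS and control mice and between the tissues, while the marker lists and the closest profiles are given in the grouping by treatment alone. In each description the source entry also contradicts the tissue entry. The tissue entry was used, since the library names in the tables normalized for each tissue match it. The total count was 15060553 to 20106226 per colon library and 21127134 to 32944792 per blood library. These totals can hold a read more than once, since some rows share a mature sequence. The erythroid miR-486a-5p and miR-486b-5p are identical and had nearly equal counts (miR-486a-5p at 95.9% to 99.97% of miR-486b-5p in blood). With each sequence counted once, by its highest row, the blood totals were 12906328 to 19939584, of which this sequence took 60.1% to 71.0%, and the colon totals were 15006941 to 19988962.

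These miRNAs are known as markers of the absorptive epithelium of the gut, and are also made in liver and kidney. Their genes lie in paired clusters, transcribed under the hepatocyte nuclear factors of epithelial cells, and miR-192 and miR-215 can also be induced by the tumor suppressor p53. A miRNA pairs with its target mRNAs mainly through its seed, bases 2 to 8, so that miRNAs with the same seed largely share predicted targets. Each hairpin gives a 5p and a 3p arm, of which usually 1 is loaded and retained.

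The mature sequences are shown because the assignment of counts to loci rests on them. They are written 5′ to 3′ with the seed in capitals, as in the deposited tables, and each was identical to the RefSeq entry of GRCm38.p6.
miR-192-5p: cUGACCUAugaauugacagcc
miR-215-5p: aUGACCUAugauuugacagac
miR-194-5p: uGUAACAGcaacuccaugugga
miR-194-1-3p: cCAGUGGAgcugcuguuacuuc
miR-194-2-3p: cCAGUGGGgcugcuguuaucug
miR-192-3p: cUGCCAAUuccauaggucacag
miR-215-3p: uCUGUCAUucuguaggccaau

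miR-192-5p and miR-215-5p carried the same seed, and no other of the 1405 sequences in the deposited tables had it. Over their 21 bases they differed at 3 positions outside the seed, C1A, A12U and C20A, counted from the 5′ end with the base of miR-192-5p first. miR-194-5p had a seed of its own. The 3p arms of miR-194 differed at 4 of 22 positions, A8G, C19U, U20C and C22G with the base of miR-194-1-3p first, and A8G lies within the seed. The seed of miR-194-2-3p was shared by miR-6926-5p, which had at most 0.063 scaled counts per 1000000 in any colon library.

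The hairpins show which arms come from which locus, with the mature arms in capitals, written 5′ to 3′ on the plus strand of GRCm38.
Mir194-2, chr19:6264643-6264728: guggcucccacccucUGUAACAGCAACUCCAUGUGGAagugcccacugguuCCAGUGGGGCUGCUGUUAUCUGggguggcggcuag
Mir192, chr19:6264844-6264932: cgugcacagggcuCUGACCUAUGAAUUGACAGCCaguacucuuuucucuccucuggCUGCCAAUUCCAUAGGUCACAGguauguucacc
Mir194-1, chr1:185313319-185313385: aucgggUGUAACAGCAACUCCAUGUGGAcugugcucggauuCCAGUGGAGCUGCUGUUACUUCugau
Mir215, chr1:185313581-185313692: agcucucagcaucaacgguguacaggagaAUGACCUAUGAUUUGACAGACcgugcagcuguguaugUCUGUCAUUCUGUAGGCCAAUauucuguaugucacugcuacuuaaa

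On chromosome 19, Mir194-2 and Mir192 were separated by 115 bases and overlapped no other annotated gene, and the nearest protein-coding gene, Atg2a, ended 2308 bases before Mir194-2. On chromosome 1, Mir194-1 and Mir215 were separated by 195 bases. Mir194-1 lay in an intron and Mir215 in an exon of the noncoding gene 2010103J01Rik on the same strand, and both lay in an intron of Iars2, a mitochondrial tRNA synthetase gene on the opposite strand. The mature miR-194-5p is identical from both loci and its counts cannot be divided between them. Whether a read of it was counted for 1 hairpin or for both is not given in the sources used here, which bears on its level but not on its differences between mice. The 3p arms of miR-194 and the arms of miR-192 and miR-215 each belong to a single locus.

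The colon comparison addressed which of these miRNAs differ in the colon of DSS mice. Levels are counts per 1000000 counts (CPM) after scaling of the 6 colon libraries with TMM factors, a trimmed mean of the ratios between libraries. In the colon, miR-192-5p, miR-194-5p and miR-194-2-3p were lower in DSS mice than in controls by 2.06-fold to 2.44-fold. They were significantly differentially expressed, which required both a padj (p adjusted by Benjamini-Hochberg over all miRNAs tested) no higher than 0.05 and a fold above 1.5 in edgeR's quasi-likelihood test. miR-192-5p and miR-194-2-3p come from chromosome 19 and miR-194-5p from both loci. None of the 3 arms that belong to chromosome 1 alone passed, and neither did miR-192-3p. The counts called were thus 3 lower and 0 higher of 7 tested, against 4.24% called lower and 5.90% called higher among the 542 miRNAs tested in colon.

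miR-192-5p, the most abundant member, stood at 50047, 29039 and 23306 CPM in the DSS mice 1, 7 and 9 and at 71681, 90852 and 87471 CPM in the control mice 2, 4 and 8. Every DSS mouse was below every control, and mouse 1 was the highest of the DSS group. The means were 34130 ± 14079 CPM in DSS mice and 83335 ± 10233 CPM in controls (SD, n = 3 each), with a log2FC of -1.29 (SE 0.31, padj = 0.0491 in edgeR). It was the second most abundant miRNA in each control colon and ranked 5, 8 and 7 in the DSS mice 1, 7 and 9. With each sequence counted once, it took 4.65%, 3.04% and 3.01% of the counts in the DSS mice and 7.03%, 8.54% and 7.71% in the controls.

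miR-194-5p, the product of both loci, stood at 5442, 3479 and 2599 CPM in the DSS mice and at 7357, 9276 and 7700 CPM in the controls. The groups did not overlap, and the order of the DSS mice was that of miR-192-5p. The means were 3840 ± 1456 CPM and 8111 ± 1024 CPM (SD, n = 3 each), and the log2FC was -1.08 (SE 0.27, padj = 0.0491 in edgeR). It ranked 19 to 21 among the miRNAs of the control colons and 27 to 38 in the DSS colons. miR-194-2-3p, the arm that marks the chromosome 19 copy, stood at 103, 91.9 and 85.0 CPM in the DSS mice and at 132, 208 and 236 CPM in the controls. The DSS mice lay close together here, with an SD of 9.11 CPM against 53.7 CPM in the controls, and the log2FC was -1.04 (SE 0.23, padj = 0.0431 in edgeR).

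miR-194-1-3p, the corresponding arm of the chromosome 1 copy, stood at 112, 48.5 and 40.2 CPM in the DSS mice and at 67.8, 78.6 and 101 CPM in the controls. The DSS mouse 1 was above every control, so that the groups overlapped, and the log2FC was -0.30 (SE 0.39, padj = 0.625 in edgeR). miR-215-5p, which shares the seed of miR-192-5p, stood at 25022, 13526 and 9172 CPM in the DSS mice and at 24094, 28635 and 26631 CPM in the controls. Mouse 1 lay within the control range while mice 7 and 9 lay below it, with a log2FC of -0.73 (SE 0.35, padj = 0.194 in edgeR). Its means were 15907 ± 8188 CPM in DSS mice and 26453 ± 2276 CPM in controls (SD, n = 3 each), and it ranked 11 in each control and 12 to 14 in the DSS mice. miR-215-3p ran in the same order as miR-215-5p among the DSS mice, though not among the controls. It stood at 222, 140.0 and 84.3 CPM against 220.3, 197 and 271 CPM, with a log2FC of -0.63 (SE 0.34, padj = 0.245 in edgeR).

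miR-192-3p, the passenger arm of the chromosome 19 hairpin, was rare, with 10, 5 and 12 counts in the DSS mice and 17, 13 and 18 counts in the controls. These counts correspond to 0.717, 0.282 and 0.464 CPM against 1.13, 0.785 and 1.13 CPM, and every DSS mouse was below every control. The log2FC was -1.08 (SE 0.40, padj = 0.122 in edgeR). Counting error is large at this depth, and the difference did not pass the threshold. The SD between DSS mice was 37.9% to 58.7% of the mean for 6 members and 9.76% for miR-194-2-3p, while between controls it was 8.60% to 28.0% for the 7. In all, 4 of 7 members had every DSS mouse below every control, against 16.1% of the 542 miRNAs tested. All 7 had a negative log2FC, with a median of -1.04 against 0.04 over all miRNAs tested.

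**Figure D1:**
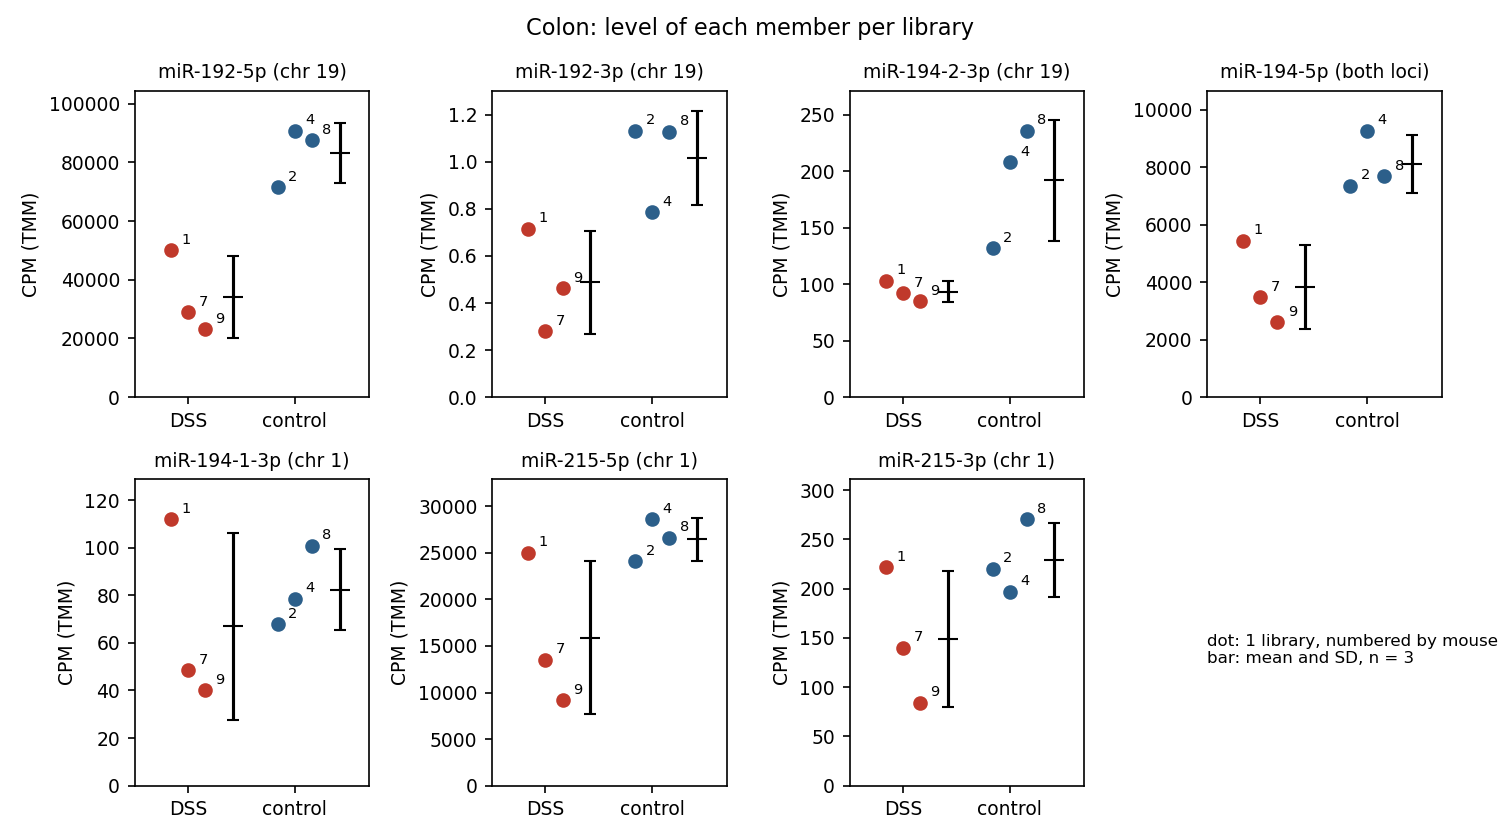
CPM (y axis, from 0) of each member in the 6 colon libraries, with dots numbered by mouse and the mean and SD of each group (n = 3) beside them. The DSS mouse 1 lies within or above the control range for miR-194-1-3p, miR-215-5p and miR-215-3p and below it for miR-192-5p, miR-192-3p, miR-194-2-3p and miR-194-5p.

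The 3 calls lay close to the limit. Also 3 members were called with at least 10 counts required in every library, with DESeq2, with limma, with robust dispersion and with each mature sequence counted once, and 4 without a filter on low counts. With RLE or upper-quartile factors, or all 12 libraries in 1 fit, 0 were called. Over all miRNAs the calls were 32 higher and 23 lower with TMM, 6 higher and 10 lower with RLE, 4 and 4 with upper-quartile factors, and 38 and 9 with total counts alone, which moved the median log2FC of all miRNAs from 0.04 to 0.26. Leaving out mouse 1 gave 4 calls, with miR-215-5p added (log2FC -1.23, padj = 0.0172 in edgeR), and leaving out mouse 2, 4, 7, 8 or 9 gave 0. Across these fits the log2FC lay between -1.68 and -1.08 for miR-192-5p and between -1.43 and -0.86 for miR-194-5p. For miR-194-2-3p it lay between -1.28 and -0.88. Their highest padj were 0.154, 0.16 and 0.151 in edgeR. Besides miR-215-5p, the other arms of chromosome 1 also depended on mouse 1. Without it the log2FC was -0.91 for miR-194-1-3p (padj = 0.0521 in edgeR) and -1.05 for miR-215-3p (padj = 0.0535 in edgeR), and without any other mouse it lay between -0.45 and -0.04 for miR-194-1-3p and between -0.73 and -0.34 for miR-215-3p. Grouped by the disease state entry, 0 members and 0 miRNAs were called in colon, and the log2FC of the 7 members lay between 0.10 and 0.68 (padj = 0.991 in edgeR for each). All 7 members overlapped between the groups so formed.

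Ratios of counts within a library need no scaling between libraries and were compared on the log2 scale after adding 0.5 counts to both sides. The share of miR-215-5p in the sum of miR-192-5p and miR-215-5p was 33.3%, 31.8% and 28.2% in the DSS colons of mice 1, 7 and 9. It was 25.2%, 24.0% and 23.3% in the control colons of mice 2, 4 and 8. The 95% exact Clopper-Pearson intervals spanned at most 31.7% to 31.9% around the value of mouse 7, so counting error was far smaller than the spread between mice. The mean share was 31.1% ± 2.61 in DSS mice and 24.2% ± 0.923 in controls (SD, n = 3 each), and the groups did not overlap. The ratio of miR-215-5p to miR-192-5p was 1.42-fold higher in DSS mice (exact permutation test, two-sided, p = 0.1, the smallest p that 3 against 3 allows, padj = 0.4 over 8 ratios).

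The ratio of miR-194-5p to miR-192-5p was 1.16-fold higher in the DSS colon, without overlap between the groups (exact permutation p = 0.1, padj = 0.4). The chromosome 1 copy made up 52.1%, 34.6% and 32.1% of the miR-194 3p arms in the DSS mice 1, 7 and 9 and 33.9%, 27.5% and 29.9% in the controls. Mouse 1 was thus the only library in which the chromosome 1 arm outnumbered the chromosome 19 arm, with an exact interval of 50.3% to 53.9%. The ratio of miR-194-2-3p to miR-194-1-3p differed by -0.57 on the log2 scale (exact permutation p = 0.2, padj = 0.4), and the value of mouse 9 lay within the control range. Without mouse 1 this difference was -0.20. The other 5 ratios overlapped between the groups, with padj of 0.4 to 0.6.

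The ratios of 3p to 5p arms overlapped between the colon groups. miR-215-3p made up 0.938% ± 0.0769 of both miR-215 arms in DSS mice and 0.865% ± 0.165 in controls (SD, n = 3 each). miR-192-3p made up 0.00147% ± 0.000512 of both miR-192 arms in DSS mice and 0.00124% ± 0.00036 in controls. Both ranges overlapped. The ratio of the summed miR-194 3p arms to miR-194-5p was 1.28-fold higher in DSS mice, also with overlap (log2 difference 0.36, exact permutation p = 0.3, padj = 0.4). This difference was 0.21 without mouse 2 and 0.55 without mouse 8, the lowest and highest values with a single mouse left out. Under the disease state grouping, the log2 ratio of miR-215-5p to miR-192-5p differed by -0.025 and that of miR-194-5p to miR-192-5p by -0.015 (exact permutation padj = 1 for both).

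**Figure D2:**
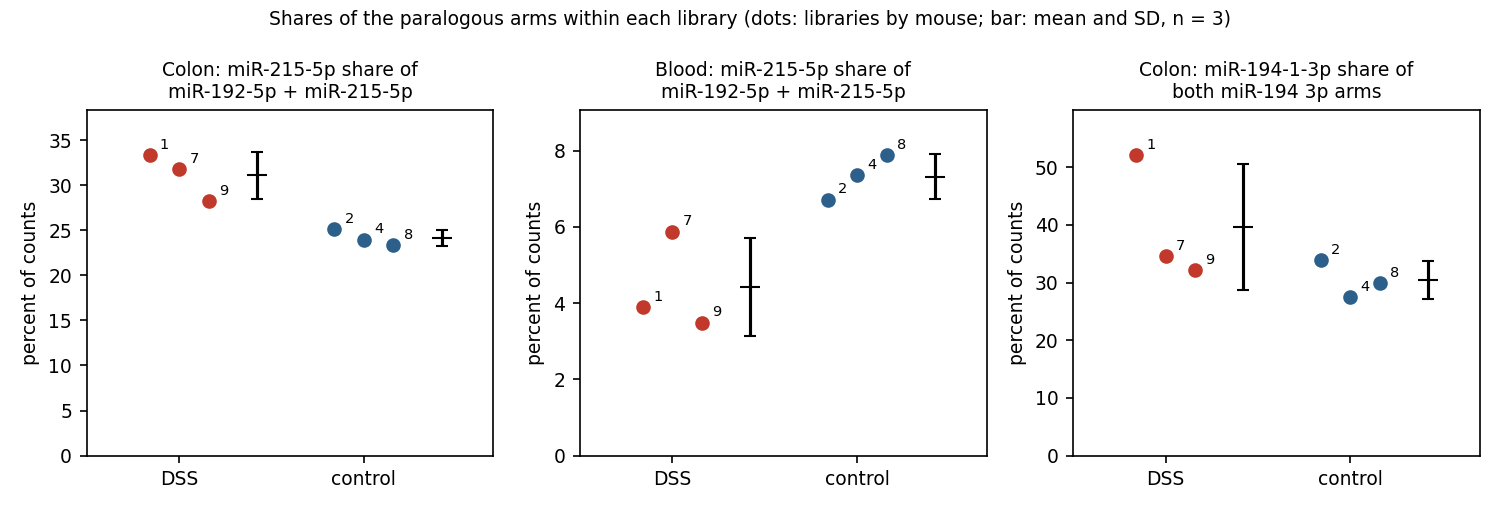
Share of counts (percent, y axis, from 0) within each library, for miR-215-5p among miR-192-5p and miR-215-5p in colon and in blood, and for miR-194-1-3p among the miR-194 3p arms in colon. Dots are libraries numbered by mouse and bars give the mean and SD (n = 3). The DSS mice lie at 28.2% to 33.3% in colon, above the controls at 23.3% to 25.2%, and at 3.49% to 5.88% in blood, below the controls at 6.71% to 7.88%.

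The members were set beside other miRNAs of the colon. Lists of cell type miRNAs gave 5 of 11 epithelial miRNAs called lower and 0 higher in DSS mice, among them miR-182-5p (log2FC -1.29, padj = 0.0431 in edgeR). Over the 542 miRNAs tested in colon, 4.24% were called lower and 5.90% higher. Of the 11, 9 had a negative log2FC. In each of these every DSS mouse was below every control, against 16.1% of all miRNAs tested. The median log2FC of the list was -1.07, close to the -1.04 of the 7 members. The summed level of the epithelial list was 23252 to 60383 CPM in DSS mice and 66374 to 82845 CPM in controls. miR-200b-3p, its most abundant member and a keeper of epithelial identity, stood at means of 18009 and 38216 CPM (log2FC -1.09, padj = 0.0764 in edgeR). Exceptions by group mean were miR-375-3p of enteroendocrine cells (log2FC 0.06) and miR-31-5p (log2FC 0.93, padj = 0.306 in edgeR). Both overlapped between the groups. miR-31-5p was also rare, at means of 1.31 CPM in DSS mice and 0.69 CPM in controls. In the same libraries, 4 of 8 leukocyte miRNAs and 1 of 4 stromal miRNAs were called higher and none lower. Their summed levels were 1441 to 2671 CPM in DSS mice against 931 to 1312 CPM in controls for leukocytes, and 5029 to 5734 CPM against 3507 to 3714 CPM for stroma. Of these lists, miR-146a-5p and miR-199a-5p were the most abundant. None of the 7 smooth muscle, 4 tested erythroid, 2 endothelial and platelet or 1 tested liver miRNAs was called in colon. The smooth muscle list, mostly miR-143-3p, summed to 260816 to 354025 CPM in DSS mice and 284564 to 363109 CPM in controls, and the erythroid list, mostly miR-486b-5p, to 3232 to 4730 against 3127 to 4288 CPM. The endothelial and platelet list, mostly miR-126a-3p, did not overlap, at 6861 to 7340 CPM in DSS mice and 5144 to 5558 CPM in controls. The part of these lists in the values of the members was not tested. In whole colon, fewer epithelial cells and less of a miRNA per cell cannot be told apart.

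Within each library, the summed count of the 7 members was 1.34, 1.26 and 1.52 times that of the 11 epithelial miRNAs in the DSS mice 1, 7 and 9. It was 1.56, 1.56 and 1.71 times in the controls. All 3 DSS mice lay below all 3 controls, with a mean difference of -0.23 on the log2 scale. This rested on miR-375-3p, an abundant entry of the list whose mean was not lower in DSS mice. It varied widely between the DSS mice, at 8301 ± 5826 CPM against 7974 ± 772 CPM in controls (SD, n = 3 each). Without it the ratio to the other 10 was 1.76, 1.60 and 1.72 in the DSS mice and 1.75, 1.75 and 1.92 in the controls, which overlapped and differed by -0.093 on the log2 scale. Grouped by the disease state entry, the ratio to all 11 overlapped and differed by -0.00079. These values were added after the data had been seen and carry no test.

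The miRNAs outside the 7 members with the profile closest to each main member were found by the root mean square (RMS) difference of log2(CPM + 1) over the 6 colon libraries, after each profile was centred on its own mean. For miR-192-5p they were miR-182-5p (RMS difference 0.061), miR-200b-3p (0.138), miR-183-5p (0.152), miR-141-3p (0.155) and miR-148a-3p (0.181). For miR-194-5p they were miR-141-3p (0.073), miR-200b-3p (0.073), miR-200b-5p (0.118), miR-182-5p (0.140) and miR-200c-3p (0.150). For miR-215-5p they were miR-200a-5p (0.137), miR-200b-5p (0.138), miR-196a-1-3p (0.144), miR-200c-3p (0.170) and miR-378c (0.173). Members of the miR-200 and miR-183 clusters thus made up most of the neighbours, and 5 of the 11 epithelial list entries appear among them. By the same measure miR-192-5p was 0.138 from miR-194-5p, nearer than all but miR-182-5p of its own neighbours and nearer to miR-194-5p than miR-182-5p and miR-200c-3p, and it was 0.274 from miR-215-5p, while miR-215-5p was 0.186 from miR-194-5p. The arms from 1 hairpin were 0.193 apart for miR-215 and 0.550 apart for miR-192, whose 3p arm had few counts. All of these distances describe 6 libraries and carry no test.

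**Figure D3:**
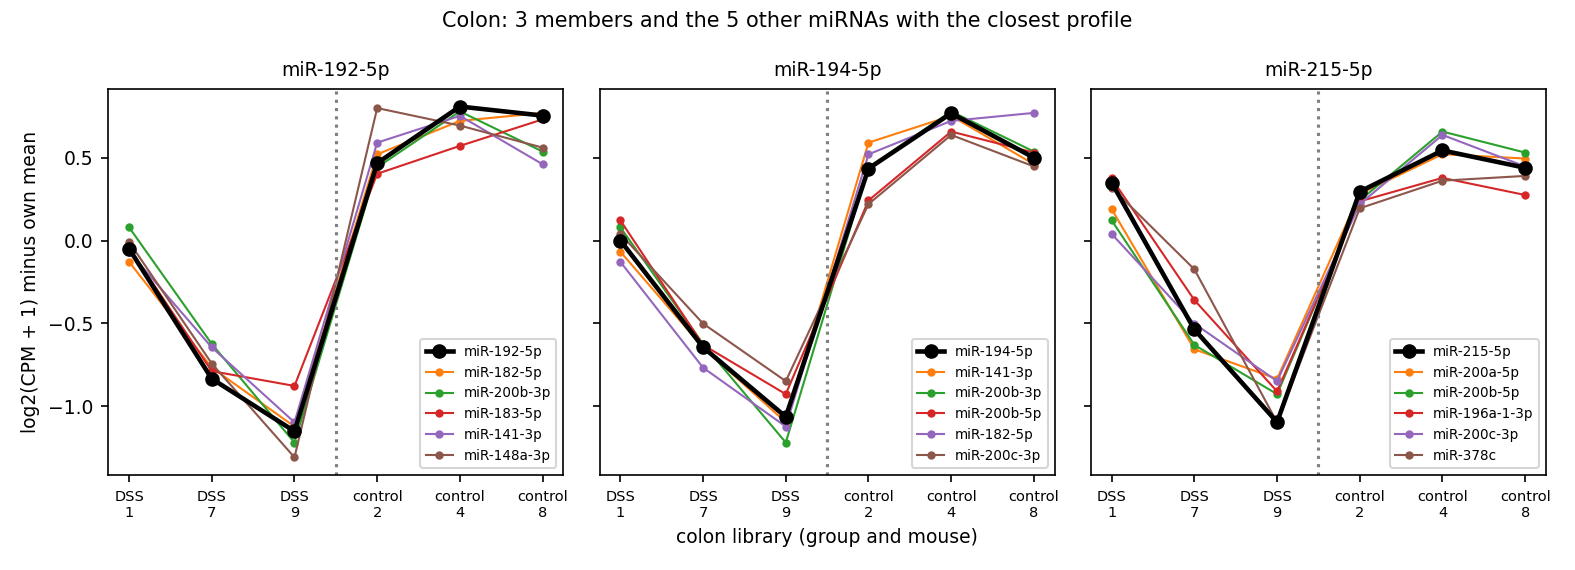
Level as log2(CPM + 1) minus its own mean (y axis) in the 6 colon libraries (x axis, group and mouse) for miR-192-5p, miR-194-5p and miR-215-5p in black, each with its 5 closest miRNAs in colour. In each panel the DSS mouse 9 is the lowest library of the member, and the value of the DSS mouse 1 lies closer to the controls for miR-215-5p than for miR-192-5p.

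The blood comparison addressed whether the same miRNAs differ in the circulation. With each sequence counted once, the 7 members made up 0.0759% to 0.123% of the blood counts, against 4.56% to 12.15% in colon. In blood, 4 of the 7 members passed the filter on low counts. miR-192-3p had 0 counts in all 6 libraries, which allows up to 0.0755 to 0.173 CPM at 3 counts per library. miR-194-1-3p had 0, 1 and 0 counts in the DSS mice and 0, 2 and 0 in the controls, and miR-215-3p had 3, 1 and 2 against 1, 3 and 6. No difference in these 3 was detectable at this depth.

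miR-192-5p did not differ detectably in blood, at 522, 423 and 522 CPM in the DSS mice 1, 7 and 9 and 508, 543 and 474 CPM in the control mice 2, 4 and 8. The log2FC was -0.06 (SE 0.20, padj = 0.938 in edgeR). It ranked 39 to 46 among the miRNAs of the blood libraries, the highest of the members. miR-194-5p stood at 36.7, 37.7 and 37.1 CPM in the DSS mice and at 57.6, 76.5 and 57.5 CPM in the controls. The DSS values lay within about a single CPM of each other and below every control, but the log2FC of -0.78 did not pass the threshold (SE 0.22, padj = 0.246 in edgeR). miR-215-5p stood at 21.1, 26.4 and 18.9 CPM against 36.5, 43.1 and 40.5 CPM, again without overlap and again without a call (log2FC -0.85, SE 0.23, padj = 0.246 in edgeR). miR-194-2-3p rested on 16, 19 and 18 counts in the DSS mice and 22, 8 and 24 in the controls, and overlapped (log2FC -0.35, SE 0.42, padj = 0.806 in edgeR).

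None of the 484 miRNAs tested in blood was called by edgeR, which is 0.00% lower and 0.00% higher, with 56 at an unadjusted p under 0.05 and a smallest padj of 0.137. DESeq2 called 9 and limma 0, no member among them. Of the 4 tested members, 2 had an unadjusted p under 0.05, and the same 2, miR-194-5p and miR-215-5p, had every DSS mouse below every control, against 9.92% of the 484 miRNAs. The median log2FC of the 4 was -0.56 against -0.05 over all miRNAs tested. Under that grouping by disease state, the log2FC was 0.15 for miR-192-5p, 0.37 for miR-194-5p, 0.23 for miR-215-5p and -0.30 for miR-194-2-3p (padj = 0.95 in edgeR for each), and all 4 overlapped.

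**Figure D4:**
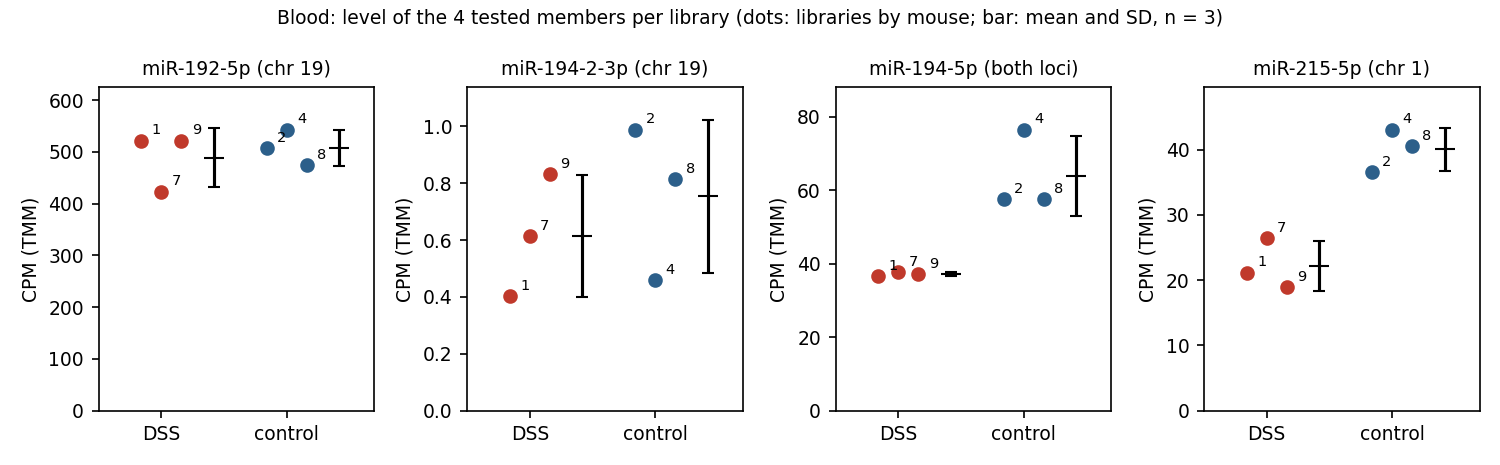
CPM (y axis, from 0) of the 4 members tested in blood, with dots numbered by mouse and the mean and SD of each group (n = 3). The DSS mice lie below all controls for miR-194-5p (36.7 to 37.7 against 57.5 to 76.5 CPM) and miR-215-5p (18.9 to 26.4 against 36.5 to 43.1 CPM), while the groups overlap for miR-192-5p and miR-194-2-3p.

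Within the blood libraries, the share of miR-215-5p in the sum of miR-192-5p and miR-215-5p was 3.90%, 5.88% and 3.49% in the DSS mice 1, 7 and 9 and 6.71%, 7.35% and 7.88% in the control mice 2, 4 and 8. The exact intervals reached 6.28% in mouse 7 and began at 6.27% in mouse 2, so the nearest mice of the groups touched within counting error. The ratio of miR-215-5p to miR-192-5p differed by -0.80 on the log2 scale and that of miR-194-5p to miR-192-5p by -0.71, both lower in every DSS mouse (exact permutation p = 0.1, padj = 0.25 over 5 ratios for both). The other 3 ratios overlapped, with padj of 0.625 to 0.9. Grouping by disease state instead, these log2 differences were 0.086 and 0.18 (exact permutation padj = 0.8 for both).

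miR-122-5p, the main miRNA of hepatocytes, which also make miR-192 and miR-194, was also lower in the blood of the DSS mice, without a call. It stood at 10.6, 8.29 and 6.37 CPM in the DSS mice and at 15.9, 191 and 88.1 CPM in the controls, with every DSS mouse below every control (log2FC -3.55, SE 0.76, padj = 0.165 in edgeR). Its part in the values of miR-194-5p and miR-215-5p was not tested. miR-122-3p had 0 counts in every blood library. Of the epithelial list, 10 of 11 were tested in blood and 0 were called, with summed levels of 411 to 591 CPM in DSS mice and 507 to 776 CPM in controls, mostly miR-200c-3p. The leukocyte list, mostly miR-142a-5p, summed to 4726 to 5788 CPM against 3297 to 5346 CPM. The endothelial and platelet list, mostly miR-126a-3p, did not overlap in blood either, at 13.4 to 16.3 CPM in DSS mice and 31.0 to 57.3 CPM in controls. Smooth muscle miRNAs summed to 197 to 264 against 191 to 395 CPM, stromal miRNAs to 12.4 to 24.1 against 21.3 to 24.6 CPM and erythroid miRNAs to 579912 to 864794 against 636782 to 1142913 CPM. Their part in the blood values of the members was likewise not tested. None of the 7 smooth muscle, 3 tested stromal, 8 leukocyte, 5 erythroid, 1 tested endothelial and platelet or 1 tested liver miRNAs was called in blood.

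**Figure D5:**
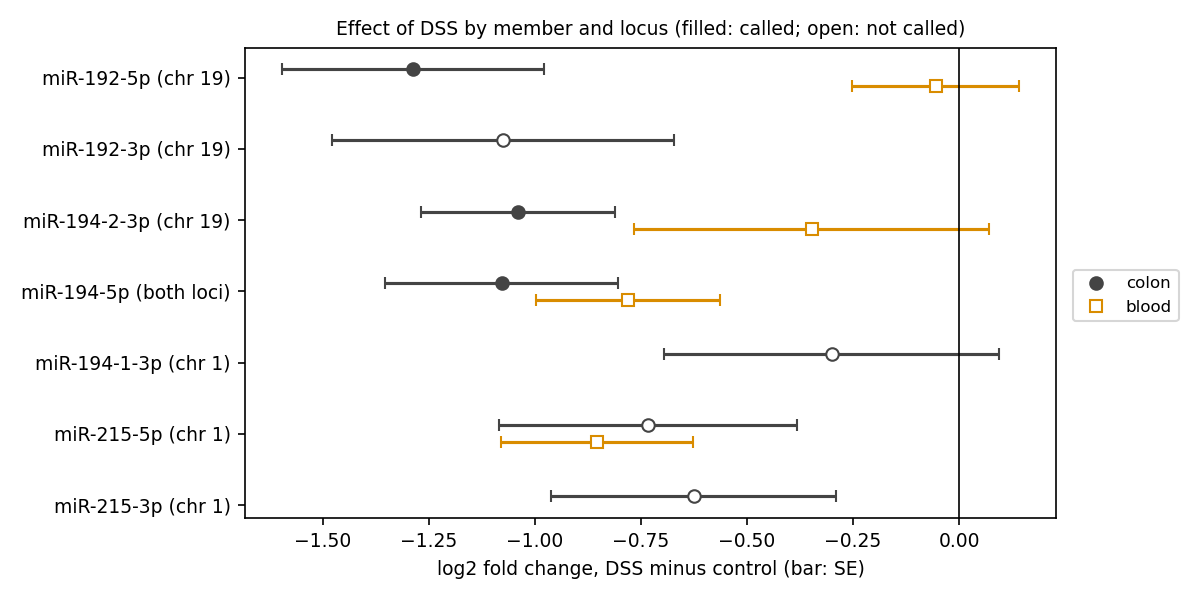
Log2FC of DSS against control mice (x axis, with SE bars, n = 3 each) for the members tested in colon (circles) and blood (squares), ordered by locus. Filled symbols mark calls, which are miR-192-5p, miR-194-2-3p and miR-194-5p in colon. miR-192-5p lies at -1.29 in colon and -0.06 in blood, and miR-215-5p at -0.73 and -0.85.

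Whether the effect of DSS differed between the tissues was tested as an interaction over the 12 libraries for the 4 members tested in both. The effect in colon minus that in blood was -1.57 on the log2 scale for miR-192-5p (SE 0.40, padj = 0.142 in edgeR). No padj of the test was smaller, but the adjustment can give several miRNAs the same value, so this is no rank. It was -0.97 for miR-194-2-3p (SE 0.49, padj = 0.408), -0.65 for miR-194-5p (SE 0.40, padj = 0.48) and -0.23 for miR-215-5p (SE 0.48, padj = 0.89), all from edgeR. None of the 680 miRNAs was called (0.00%), with 94 at an unadjusted p under 0.05, and DESeq2 called 37, no member among them. The colon call of miR-192-5p and its lack in blood were thus not shown to differ. In the disease state grouping the 4 differences lay between 0.53 and 0.66 (padj = 0.922 in edgeR for each).

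Levels were compared between the tissues in the fit of all 12 libraries. The 4 members that passed the filter on low counts in blood itself (miR-192-5p, miR-194-5p, miR-194-2-3p and miR-215-5p) were called lower in blood than in colon, in control mice and in DSS mice. Among the 680 miRNAs of this fit, 50.7% were called lower in blood in control mice and 47.4% in DSS mice. The other 3 members entered the fit through their colon counts alone, so that a call for them was fixed by the filter, and they are described by their counts. In control mice miR-192-5p was 109-fold lower in blood (log2FC -6.77, SE 0.36, padj = 6.8e-10 in edgeR), miR-194-5p 85.2-fold, miR-194-2-3p 163-fold and miR-215-5p 438-fold. In DSS mice the folds were 36.9 for miR-192-5p, 54.5 for miR-194-5p, 83.3 for miR-194-2-3p and 373 for miR-215-5p. miR-215-3p had 10 and 6 summed counts in the blood of control and DSS mice against 10885 and 7753 in colon. miR-194-1-3p had 2 and 1 summed counts in the blood of control and DSS mice against 3927 and 3464 in colon. For miR-192-3p, absent from the blood counts, the colon level was at least 15.3-fold higher in control mice and at least 7.53-fold higher in DSS mice than the level that 3 counts over the group allow. Scaling by total counts alone moved miR-192-5p to a log2FC of -7.36 in control mice and -6.03 in DSS mice. Grouped by disease state, the same 4 members were called lower in blood in both groups. The log2FC of miR-192-5p then moved to -5.82 in control mice and -6.38 in colitis mice, and that of miR-194-5p to -5.87 and -6.40.

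The make-up of the family also differed between the tissues. Ratios were tested where each side had over 3 counts summed over each tissue, which is a low limit. Among 5 such ratios, 4 were lower in blood than in colon over 6 against 6 libraries (exact permutation, two-sided). miR-215-5p to miR-192-5p was lower by 2.67 on the log2 scale, that is 0.157 times its colon value, with blood below colon in all 6 mice and no overlap (padj = 0.0036). miR-215-3p to miR-215-5p differed by -1.32 (padj = 0.0036) and the miR-194 3p arms to miR-194-5p by -1.38 (padj = 0.0036), both without overlap. The first of these rests on 1 to 6 counts of miR-215-3p per blood library, and miR-215-3p did not pass the filter on low counts in blood. This ratio differed by -0.66 with 2 counts added in place of 0.5, so its size depends on the count added. miR-194-2-3p to miR-192-5p differed by -0.91 with overlap (padj = 0.0054). miR-194-5p to miR-192-5p did not pass, at -0.11 (padj = 0.554). With the mouse as a replicate block, where exact sign flips over 6 mice cannot give a p below 0.0313, padj was 0.0521 to 0.0781 for those 4 and none passed. RNA was isolated from blood and colon with different kits, and the part of the kit in these differences cannot be told apart from that of the tissue.

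Over all members, the levels in colon ran in the order miR-192-5p, miR-215-5p, miR-194-5p, then miR-215-3p, miR-194-2-3p and miR-194-1-3p, and last miR-192-3p, by group means of CPM, and this held for DSS and control mice alike. Of these neighbours, miR-215-3p and miR-194-2-3p overlapped in both groups, and miR-192-5p and miR-215-5p as well as miR-194-2-3p and miR-194-1-3p in the DSS mice, so their order is not set beyond the spread between mice. Within each mouse miR-192-5p was above miR-215-5p. All members are 21 or 22 bases long, and CPM values were not divided by length.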

How the data were processed

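Small RNA of colon and whole blood from 6 mice was sequenced. The authors trimmed and collapsed the reads, counted them on mature miRNAs with the miRDeep2 quantifier, and deposited unnormalized read counts. They also deposited a normalized signal per tissue, each count divided by a DESeq2 size factor of its library; it entered only the limma alternative, as log2(signal + 1), and its sequences were used. Per the labels the build was GRCm38. Every per-sample column was used.

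The 7 members, the lists and the tests were chosen with earlier results of these data known. In R (4.3.3), counts were filtered with filterByExpr, scaled with TMM and tested with glmQLFit and glmQLFTest of edgeR (4.0.16), in each tissue alone and, between tissues, over 12 libraries. SE is the log2FC divided by the square root of F. Ratios were tested by exact permutation in Python (3.11.15), with Benjamini-Hochberg adjustment over the ratios of a comparison. A ratio was left out where a member had at most 3 counts summed over a group. Named miRNAs are the members, the 5 closest colon profiles, other members left out, of miR-192-5p, miR-194-5p and miR-215-5p, the most abundant of each of 7 marker lists and miR-122-5p. Outside this rule, miR-31-5p, miR-375-3p, miR-6926-5p, miR-122-3p and both miR-486 entries were named after their values were seen. The steps were tested on simulated data first.

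Alternatives were the disease state field as grouping, RLE, upper-quartile or no factors, scaling without the members, other count filters (none, or 10 in every library), DESeq2 (1.42.0), limma (3.58.1), robust dispersion, 1 fit of all libraries, each sequence once, 0 or 2 counts added in ratios, the mouse as a block, and each mouse left out. Colon and blood libraries with the same number come from the same mouse and are paired by design, although their deviations from the group means correlated by only -0.267 to 0.072 over 680 miRNAs. Counts carry no molecular identifiers in the sources used here, so intervals and floors cover counting error only.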

Additional observations from a re-analysis of the deposited data

Results flagged for a closer look

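The ratio of miR-215-5p to miR-192-5p separated the groups in opposite directions in colon and blood, as all 3 DSS mice lay above all 3 controls in colon and below them in blood. The effect of DSS on this log2 ratio was 1.31 higher in colon than in blood, taken over the difference between the tissues within each mouse (p = 0.1 in a two-sided exact permutation test, which can give no smaller p here, padj = 0.25 over 5 ratios). The ratio of miR-194-5p to miR-192-5p did the same, with a difference of 0.926 (exact permutation p = 0.1, padj = 0.25). In the disease state grouping these differences were -0.11 and -0.20 (exact permutation padj = 1 for both). miR-192-5p is the denominator of both ratios, so they are not independent of each other. This comparison between the tissues was added after the data had been seen.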

How the results depend on the processing

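The number of members called lower in colon was 3. It was 0 with the disease state field as grouping, with RLE factors, with upper-quartile factors and with all 12 libraries in 1 fit, 1 with scaling without the 7 members, and 0 to 4 when each mouse was left out. It was 2 to 4 in the other 7 settings. All miRNAs called in colon numbered 55, and 16 with RLE, 8 with upper-quartile factors, 0 with the disease state field or 1 fit, 76 and 75 without a filter and with DESeq2 and 0 to 44 without each mouse. In blood 0 members were called under all 18 alternatives, and 0 miRNAs became 25 without a filter, 9 with DESeq2, and 1 with 1 fit or without mouse 2. For the difference between tissues 0 miRNAs became 8 with RLE, 37 with DESeq2, 1 with the replicate block and 2 without mouse 1, no member among them. With 10 counts required in every library, miR-192-3p in colon and miR-194-2-3p in blood gave no value. The cause was not tested.

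With the disease state field, the log2FC in colon was 0.60 for miR-192-5p, 0.52 for miR-192-3p, 0.68 for miR-194-5p, 0.45 for miR-194-1-3p, 0.10 for miR-194-2-3p, 0.66 for miR-215-5p and 0.37 for miR-215-3p. In blood it was 0.15 for miR-192-5p, 0.37 for miR-194-5p and 0.23 for miR-215-5p, and the difference between tissues was 0.56 for miR-192-5p, 0.53 for miR-194-5p, 0.55 for miR-194-2-3p and 0.66 for miR-215-5p. The log2 ratios became, in colon, -0.015 for miR-194-5p/miR-192-5p, -0.025 for miR-215-5p/miR-192-5p, -0.14 for miR-192-3p/miR-192-5p, -0.26 for miR-215-3p/miR-215-5p, -0.62 for miR-194-2-3p/miR-192-5p, -0.26 for miR-194-1-3p/miR-215-5p and -0.45 for the miR-194 3p arms/miR-194-5p. In blood they became 0.18 for miR-194-5p/miR-192-5p, 0.086 for miR-215-5p/miR-192-5p and -0.63 for the miR-194 3p arms/miR-194-5p. miR-192-5p in blood changed sign at a log2FC of 0.059 with upper-quartile factors, 0.20 with total counts, 0.24 in 1 fit, and -0.061 to 0.088 without each mouse. The difference between tissues for miR-215-5p changed sign at 0.23 with RLE, 0.050 with total counts, 0.21 with DESeq2 and -0.63 to 0.020 without each mouse. miR-215-3p/miR-215-5p in blood was 0.12 with 2 counts added, and without each mouse -0.49 to 0.48 in blood and -0.030 to 0.25 in colon. Without each mouse miR-194-2-3p/miR-192-5p in blood was -0.58 to 0.090, and miR-194-5p/miR-192-5p between tissues was -0.22 to 0.0037.

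Paired by mouse, with the replicate block, the number of ratios that differed between tissues went from 4 to 0. Of the 4, 3 reached the smallest p that sign flips over 6 mice can give, 0.0313, with padj = 0.0521 over the 5 ratios, and miR-194-2-3p/miR-192-5p had padj = 0.0781 (exact sign flips). The difference between tissues for miR-192-5p was -1.62 (padj = 0.0619 in edgeR with the replicate block), and the block changed no other call of a member. The 4 members that passed the filter in blood were called lower in blood than in colon under all 12 alternatives in both groups. With 3 mice a group, the exact tests within a tissue cannot pass the threshold, and the blood counts of miR-192-3p, miR-194-1-3p and miR-215-3p set a limit of depth.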
